A study of Mus musculus with 11 samples.

Results

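NK-type lectin receptors are cell surface proteins first described on natural killer (NK) cells, and activated CD8+ T cells can carry many of them. They are encoded by Klr genes. Klrd1 (CD94) pairs either with the Klrc1 product NKG2A, an inhibitory chain, or with the Klrc2 product NKG2C, an activating chain, and these pairs bind the non-classical MHC class I molecule Qa-1. Klrk1 encodes NKG2D, an activating receptor for stress-induced ligands. Klre1 encodes a chain that pairs with products of the Klri genes. Klrg1 encodes an inhibitory receptor for cadherins and marks terminally differentiated effector cells, Klrb1c encodes the NK1.1 antigen, and Klra7 encodes Ly49G, an inhibitory receptor for MHC class I.

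These 8 genes were chosen by name, and all 8 had a row among the 32469 gene symbols of the deposited count table. They were read in 11 libraries of bulk RNA-seq, each from 1 wild-type C57BL/6 mouse that carried subcutaneous Lewis lung carcinoma (LLC) tumors, grown from a lung carcinoma line of that strain, in its flanks. Of these, 6 mice (aLAG3, libraries 6 to 11) were given an antibody against LAG-3, an inhibitory receptor of exhausted T cells (clone C9B7W, 200 µg into the peritoneum on day 14 and again on day 16), and 5 mice (untreated, libraries 1 to 5) were given none. The labels name no control antibody, so the antibody injection itself and the blockade of LAG-3 cannot be told apart. The mice were females, 8 weeks old when bought. The study's methods describe the cells as precursor exhausted cells, sorted as CD8+, PD-1+ and Ly108+ and negative for TIM-3 and CD62L, whereas the labels call them T cells of the tumor. The deposited description and the study's methods give different days for the last tumor excision. The comparison asks what LAG-3 blockade changed in these cells.

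Total counts per library ranged from 313524 to 1901374 and were lower with primer barcode 8 (1 untreated and 3 aLAG3 libraries, at most 451465 counts) and in the only library with primer barcode 10 (untreated 2, 317449 counts) than with primer barcode 9 (3 libraries of each group, at least 566144 counts). At these depths, 3 counts amount to 1.57 to 9.65 CPM (counts scaled to a common library size, here with TMM factors). Reads were amplified by PCR without molecular identifiers in the counts, so counting intervals and such floors cover counting error only. The labelled cell type held against its markers. All 6 CD8 T cell markers passed the filter on low counts, Cd8a had 1035 to 1238 CPM, and Cd4 had at most 1 count in a library. Of 10 NK cell markers, Klra8 had 0 counts in all libraries and Ncr1 had 1 count in 1 library, while Gzma, Fcer1g and Eomes passed the filter. The summed level of the NK markers, Klrb1c included, was 73.9 to 128 CPM of total counts in untreated and 52.9 to 103 in aLAG3 mice, with group means of 37.0 and 16.5 for Gzma, 28.3 and 22.98 for Fcer1g and, the other way, 16.6 and 20.5 for Eomes. The summed level of 9 myeloid markers was 26.3 to 53.0 CPM of total counts in untreated and 27.2 to 140 in aLAG3 mice (medians 29.4 and 50.7), and none of the 9 passed the filter. The part of these markers in the results below was not tested. By their titles, untreated 2, untreated 3 and aLAG3 10 share an index code, as do untreated 4 and untreated 5, and the part of this sharing was not tested either.

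A block of neighboring genes held most of the signal. Klre1, Klrd1, Klrk1, Klrc2 and Klrc1 lie in this order within 101.1 kb of chromosome 6 (chr6:129577905-129678973, GRCm38), and they took 93.9% of the 26064 reads on all 30 Klr rows of the table. They are also the 5 of 8 genes that passed the filter on low counts. Not every gene of the block was high, as Klrc3 lies between Klrk1 and Klrc2 with 21 reads in all. Klrc1 (chr6:129666015-129678973, minus strand) and Klrd1 (chr6:129591782-129598775, plus strand) ranked 167 and 174 by mean CPM among the 6949 genes tested. Klrk1 (chr6:129610323-129623864, minus strand) ranked 208, Klre1 (chr6:129577905-129585827, plus strand) 647 and Klrc2 (chr6:129647496-129660689, minus strand) 1857. All 8 genes are protein-coding.

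The other 3 genes were near the floor. Klra7 lies at chr6:130218605-130233322 and had 88 reads over the 11 libraries. Klrb1c lies at chr6:128778485-128789215 and Klrg1 at chr6:122270596-122282882, each on the minus strand like Klra7, and each had 13 reads in all.

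**Figure D1:**
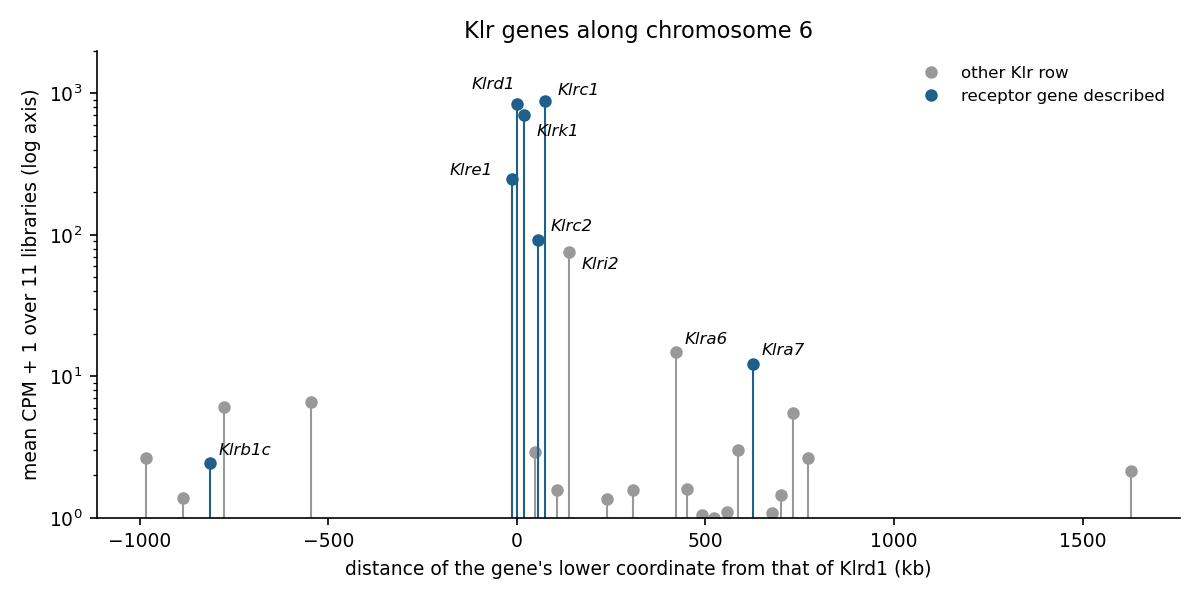
Mean CPM + 1 over 11 libraries (log axis) of the Klr genes of chromosome 6 against the distance of each gene's lower coordinate from that of Klrd1 in kb. Blue points are the receptor genes described and grey points are other Klr rows; Klrg1 and Klrg2 lie outside the range. The highest levels sit together between -13.9 and 74.2 kb, where Klrc3, with a mean of 1.94 CPM, also lies.

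Klrc1 and Klrc2 need a caution before their values, because their sequences are alike. Their coding sequences were identical at 82.8% of aligned bases (714 bases aligned). The difference was uneven along the gene, with 67.0% identity over coding bases 1 to 363 of Klrc1 and 97.6% over bases 364 to 732. The longest identical run was 100 bases. Below is the window of 90 coding bases with the most differences, 40 of 90, in capitals where the genes differ (5′ to 3′, minus strand, GENCODE M21 transcripts on GRCm38; exons are joined).
Klrc1 coding bases 265 to 354 (chr6:129677309-129678320): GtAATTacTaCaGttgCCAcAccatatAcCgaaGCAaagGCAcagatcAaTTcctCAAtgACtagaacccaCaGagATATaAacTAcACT
Klrc2 coding bases 247 to 336 (chr6:129659315-129660002): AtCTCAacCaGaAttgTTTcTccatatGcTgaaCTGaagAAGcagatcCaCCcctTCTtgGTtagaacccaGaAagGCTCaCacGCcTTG
Klrc3, a row with few reads, was 94.9% identical to Klrc2 and 85.2% to Klrc1 over aligned coding bases, so the capitals tell Klrc1 from Klrc2 but may not tell Klrc2 from Klrc3. The window with the fewest differences, 0 of 90, begins shortly after it and holds no capital.
Klrc1 coding bases 364 to 453 (chr6:129677210-129677299): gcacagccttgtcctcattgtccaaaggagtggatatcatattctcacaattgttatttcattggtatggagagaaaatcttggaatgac
Klrc2 coding bases 346 to 435 (chr6:129658729-129659305): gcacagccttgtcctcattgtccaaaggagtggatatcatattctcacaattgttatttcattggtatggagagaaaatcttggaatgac
How reads that match several genes were counted is not given in the sources used here, so the Klrc1 and Klrc2 levels are uncertain to the extent that such reads were split. Of the distinct 50-base stretches of the Klrc1 transcripts, 38.6% also occurred in transcripts of other genes, as did 16.3% of those of Klrc2. The same share was 17.0% for Klrb1c, which also overlaps Gm44511 on its strand, and 12.3% for Klra7. It was 0.308% for Klre1 and 0% for Klrd1, Klrk1 and Klrg1.

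**Figure D2:**
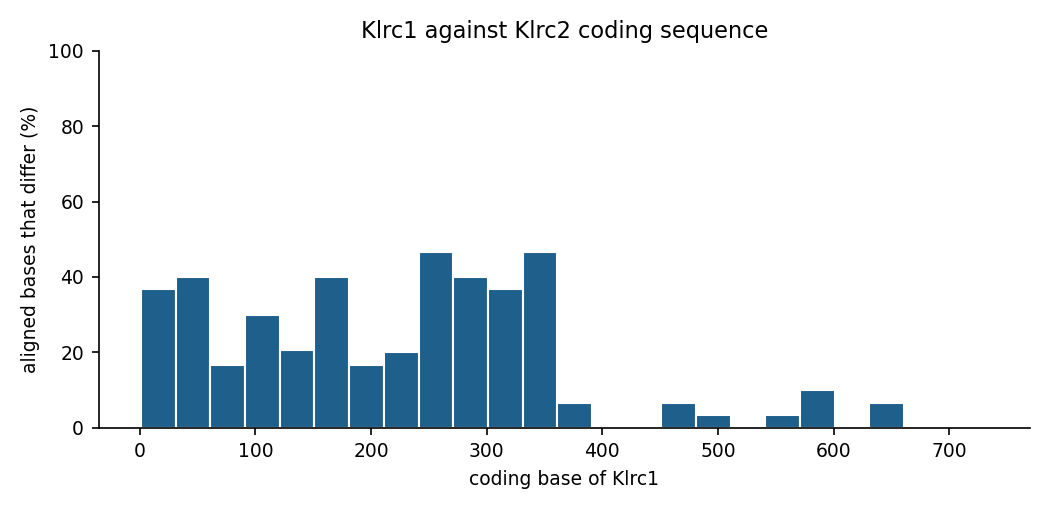
Percent of aligned coding bases that differ between Klrc1 and Klrc2, in steps of 30 coding bases of Klrc1. The differing bases lie mostly before base 364; from there on 9 of 369 aligned bases differ.

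Klrd1, the chain shared by the CD94 receptors, was at a high and even level in every mouse. It had 841, 837, 776, 816 and 892 CPM in untreated mice 1 to 5. In aLAG3 mice 6 to 11 it had 895, 860, 898, 777, 923 and 758 CPM. The highest and the lowest library were both aLAG3, the groups overlapped, and the highest value was 1.22 times the lowest. The group means were 833 ± 42.1 CPM (SD, n = 5) for untreated and 852 ± 68.6 CPM (SD, n = 6) for aLAG3. The log2 fold change was 0.033 (standard error 0.074, 95% interval -0.12 to 0.18), with an adjusted p of 0.9996 from the quasi-likelihood test of edgeR, adjusted over all genes tested by Benjamini-Hochberg.

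Klrc1, which encodes the inhibitory partner NKG2A, was the gene with the highest mean CPM among the 8. It had 938, 828, 853, 819 and 916 CPM in untreated mice 1 to 5, and 920, 984, 985, 757, 875 and 854 CPM in aLAG3 mice 6 to 11. The aLAG3 mice held both extremes, and the untreated values lay within their range. The means were 871 ± 53.5 CPM (SD, n = 5) for untreated and 896 ± 86.9 CPM (SD, n = 6) for aLAG3, and the log2 fold change was 0.038 (standard error 0.077, 95% interval -0.12 to 0.20).

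Klrc2, which encodes the activating partner NKG2C, was far lower. It had 91.4, 87.8, 87.2, 63.4 and 105 CPM in untreated mice 1 to 5, and 95.7, 97.7, 89.8, 73.2, 103 and 110 CPM in aLAG3 mice 6 to 11. The lowest value came from an untreated and the highest from an aLAG3 library, and the ranges overlapped. As few as 26 reads stood behind a value. The means were 87.0 ± 15.1 CPM (SD, n = 5) for untreated and 94.97 ± 12.7 CPM (SD, n = 6) for aLAG3, and the log2 fold change was 0.090 (standard error 0.13, 95% interval -0.19 to 0.37).

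Klrk1, the gene of NKG2D, had 637, 680, 649, 677 and 751 CPM in untreated mice 1 to 5. In aLAG3 mice 6 to 11 it had 758, 719, 689, 646, 666 and 811 CPM. Only aLAG3 libraries 6 and 11 exceeded every untreated library. The means were 679 ± 44.4 CPM (SD, n = 5) for untreated and 715 ± 61.4 CPM (SD, n = 6) for aLAG3, and the log2 fold change was 0.079 (standard error 0.078, 95% interval -0.082 to 0.24).

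Klre1, the chain that pairs with the Klri products, had 278, 241, 216, 219 and 255 CPM in untreated mice 1 to 5. In aLAG3 mice 6 to 11 it had 282, 265, 191, 282, 177 and 307 CPM. The untreated values lay inside the aLAG3 range, and the 3 aLAG3 libraries of primer barcode 8 held its lowest 2 values and its highest. The means were 242 ± 25.9 CPM (SD, n = 5) for untreated and 251 ± 53.6 CPM (SD, n = 6) for aLAG3, and the log2 fold change was 0.073 (standard error 0.12, 95% interval -0.17 to 0.32).

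Of the 5 genes tested, 0 passed the threshold of 0.05, beside 0% (0 of 6949) of all genes tested. The adjusted p was 0.9996 for each of the 5. At an unadjusted p under 0.05 the same edgeR test gave 258 genes (3.71%), again with 0 of the 5 among them. The groups overlapped for each of the 5, as they did for all but 34 of the 6949 genes tested. The likelihood ratio test and DESeq2 also called 0 genes, with 307 and 163 genes at an unadjusted p under 0.05. The 5 log2 fold changes were positive, with a median of 0.073 against 0.0041 over all genes tested, and each was at most 1.01 times its standard error, Klrk1 having the largest ratio. The 95% intervals reached upward to 1.14-fold for Klrd1, 1.15-fold for Klrc1, 1.18-fold for Klrk1, 1.25-fold for Klre1 and 1.29-fold for Klrc2, and downward to 0.92-fold, 0.92-fold, 0.94-fold, 0.89-fold and 0.88-fold in the same order. In bulk samples, fewer cells with a transcript and less RNA per cell cannot be told apart.

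**Figure D3:**
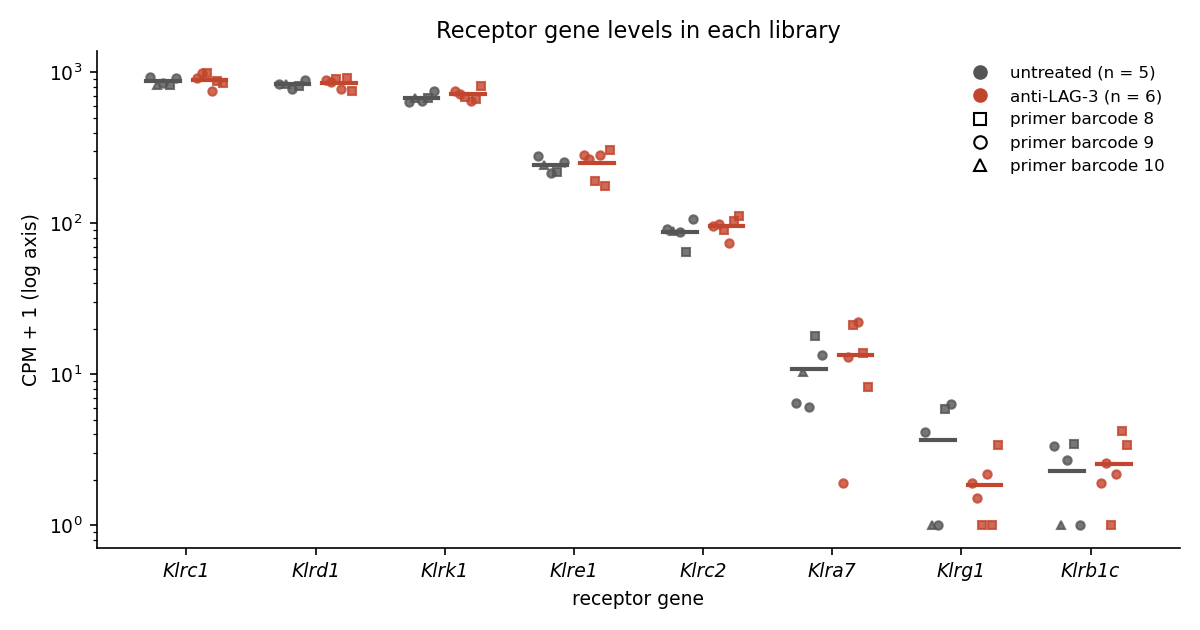
CPM + 1 (log axis) of the 8 receptor genes in each of 11 libraries, untreated in grey (n = 5) and aLAG3 in red (n = 6), with the marker shape giving the primer barcode and the line the group mean. The groups overlap for each gene, as they do for all but 34 of the 6949 genes tested. Klra7, Klrg1 and Klrb1c lie below the other 5 in each library.

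**Figure D4:**
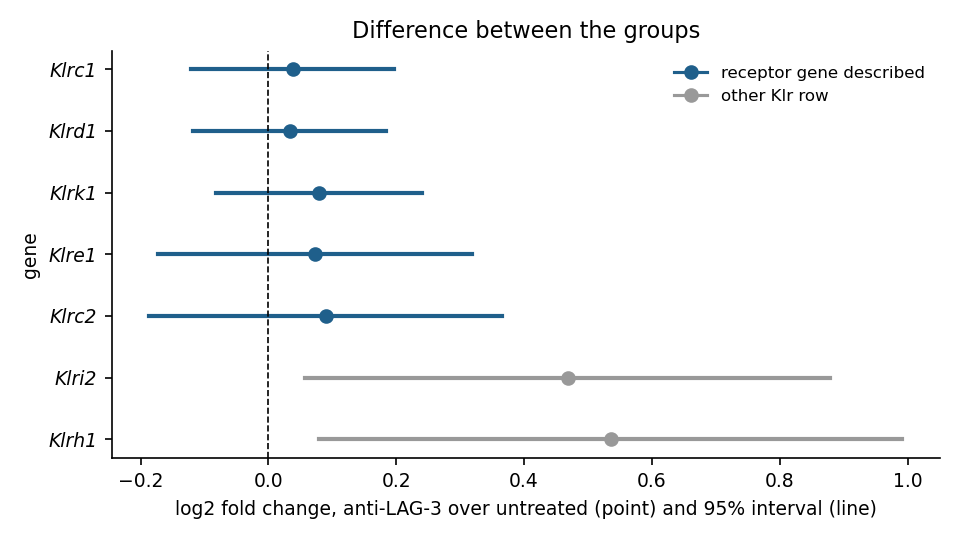
Log2 fold change of aLAG3 over untreated (points) with 95% intervals (lines) for the Klr rows that passed the filter, receptor genes described in blue and other Klr rows in grey. The intervals of the 5 receptor genes include 0; those of Klri2 and Klrh1 do not, before adjustment over all genes.

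Within the 6 libraries of primer barcode 9, 3 of each group, the log2 fold change was 0.015 for Klrd1 (standard error 0.093), 0.064 for Klrk1 (standard error 0.10) and 0.14 for Klre1 (standard error 0.12). It turned to -0.022 for Klrc1 (standard error 0.10) and to -0.053 for Klrc2 (standard error 0.15). Primer barcode 8 held 1 untreated library and barcode 10 held no aLAG3 library, so neither gives a value of its own. With the primer barcode as a covariate, the 5 log2 fold changes lay between 0.029 and 0.12.

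The spread over the libraries of the 5 genes above the filter is given beside that of counting alone. The coefficient of variation over the 11 libraries was 15.1% for Klrc2, where counting alone gives 13.9%, and chi-square per degree of freedom was 1.09. For Klrd1 it was 6.67% against 4.58% from counting, for Klrk1 7.87% against 5.04%, for Klrc1 8.07% against 4.42%, and for Klre1 16.8% against 8.30%. Chi-square per degree of freedom was 4.97 for Klrc1, 3.86 for Klre1, 3.08 for Klrk1 and 2.24 for Klrd1, beside a median of 1.46 over all genes tested, on a statistic that grows with the number of reads. Klrc2 had the fewest reads of the 5, so its value and those of the others cannot be ranked as spread between mice.

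The NKG2A transcript outnumbered the NKG2C transcript in every mouse. The Klrc1 count was 10.3, 9.43, 9.79, 12.9 and 8.69 times the Klrc2 count in untreated mice 1 to 5, and 9.61, 10.1, 11.0, 10.3, 8.50 and 7.74 times in aLAG3 mice 6 to 11. As a share of the reads on both genes, Klrc2 had 7.18% in untreated mouse 4 (95% exact Clopper-Pearson interval 4.75% to 10.3%) and 11.4% in aLAG3 mouse 11 (8.50% to 14.97%), which were the lowest and the highest. The ranges of the groups overlapped. The mean log2 ratio of (CPM + 1) was 3.32 ± 0.21 (SD, n = 5) in untreated and 3.23 ± 0.19 (SD, n = 6) in aLAG3 mice, and the difference of -0.095 was smaller than either SD (p = 0.472, two-sided, exact permutation of the mice). It was -0.0081 without untreated mouse 4, -0.037 without aLAG3 mouse 11 and -0.15 without untreated mouse 5. Within primer barcode 9 the ratio was higher in aLAG3 mice by 0.064 (exact permutation p = 0.60, where 3 against 3 cannot go below 0.10). These ratios are of reads and carry the uncertainty of the shared sequence and of the unequal transcript lengths. How far each of these matters depends on where along the transcripts the reads lay, which was not tested.

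**Figure D5:**
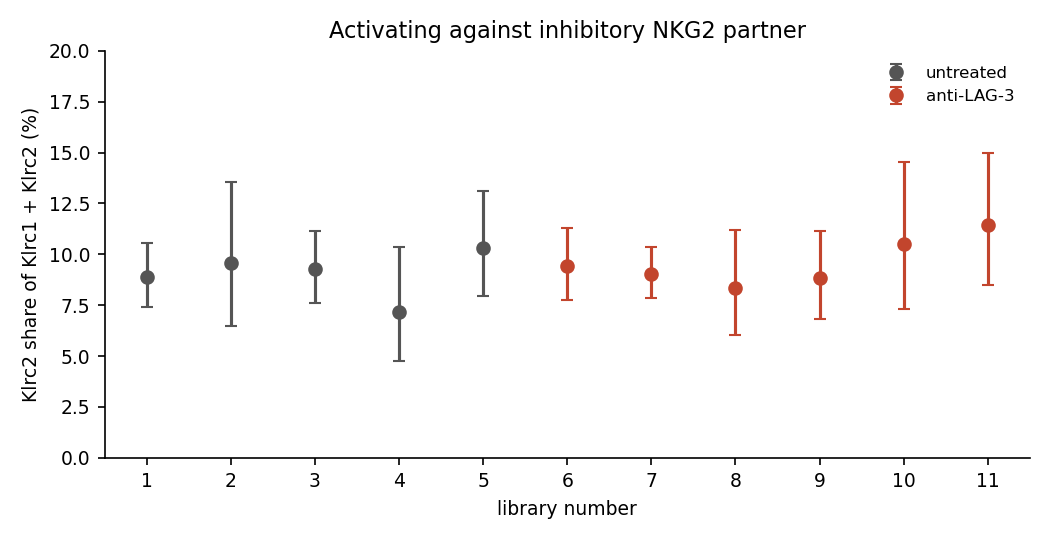
Klrc2 reads as a percent of Klrc1 plus Klrc2 reads in each library, with 95% exact Clopper-Pearson intervals (bars), untreated in grey and aLAG3 in red. The 11 shares lie between 7.18% and 11.4% and the groups overlap.

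Per kb of transcript, the order of the levels was Klrd1, Klrk1, Klrc1, Klre1, Klrc2, Klra7, Klrg1 and Klrb1c. With the length of the transcript that has the longest coding sequence, the mean level was 942 ± 62.8 CPM per kb (SD, n = 11) for Klrd1, 550 ± 43.3 for Klrk1, 446 ± 35.96 for Klrc1, 191 ± 32.1 for Klre1 and 79.5 ± 12.0 for Klrc2. Each of these genes exceeded the next in 11 of 11 libraries. With the length of all annotated exons instead, which is longer for Klrk1, Klrc2 and Klrb1c among others, the mean level of Klrk1 was 203 CPM per kb and that of Klrc1, 446, exceeded it in every library. On that scale Klrc2 was at 28.4 and Klrb1c at 0.544 CPM per kb. The order of Klrk1 and Klrc1 and the level of Klrc2 thus depend on the length used. The Klra7 level was 10.8 ± 6.20 CPM per kb (SD, n = 11), below Klrc2 in 11 of 11 libraries, and Klrg1 (1.18 ± 1.41) exceeded Klrb1c (0.863 ± 0.676) in only 6 of 11. Whether reads covered whole transcripts evenly was not tested. The study's methods put the primer barcode on the template-switching end of the cDNA, before fragmentation. Some libraries here share an index code, so that barcode tells them apart. If the counted reads came mainly from that end, they would not grow with transcript length. The levels and the order per kb would then not hold.

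Klra7, the Ly49G receptor of MHC class I, was below the filter but had reads in every library. Its counts were 7, 3, 6, 7 and 7 in untreated mice 1 to 5, and 1, 23, 9, 18, 4 and 3 in aLAG3 mice 6 to 11. Of the 11 libraries, 8 had more than 3 counts. The level was 5.47, 9.40, 5.08, 17.1 and 12.5 CPM in untreated and 0.903, 12.0, 20.2, 21.3, 12.9 and 7.20 CPM in aLAG3 mice, so that the aLAG3 mice held both the highest and the lowest value. On the scale of log2(CPM + 1) the means were 3.32 ± 0.68 (SD, n = 5) and 3.39 ± 1.32 (SD, n = 6), differing by 0.069 (two-sided exact permutation, p = 0.942, adjusted p = 0.942 over the 3 genes below the filter). With 1 library left out, this difference changed sign in 5 of 11 cases, and it was 0.56 without aLAG3 mouse 6.

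Klrg1, the marker of terminal effector cells, was at or near the floor. Its counts were 4, 0, 0, 2 and 3 in untreated mice 1 to 5, and 1, 1, 0, 1, 0 and 1 in aLAG3 mice 6 to 11. A total of 9 reads among the 3738789 of the untreated group amounts to 2.41 CPM (95% exact Poisson interval 1.10 to 4.57), and 4 reads among 5034610 of the aLAG3 group to 0.795 CPM (0.216 to 2.03). With 4 counts as the most in any library, no fold is given. The group means of log2(CPM + 1) were 1.45 ± 1.35 (SD, n = 5) and 0.74 ± 0.69 (SD, n = 6), with p = 0.29 by the exact two-sided permutation test and an adjusted p of 0.87.

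Klrb1c was near the floor too. The study's staining panel for tumors holds an NK1.1 antibody in the channel of unwanted cells, with CD11b, B220 and TER119, and NK1.1 is the Klrb1c product. If the bulk RNA-seq sort used this panel, cells with the product were gated out, and the level is then no independent finding. Its counts were 3, 0, 2, 1 and 0 in untreated mice 1 to 5, and 1, 3, 0, 1, 1 and 1 in aLAG3 mice 6 to 11. No library exceeded 3 counts, and the group totals of 6 and 7 reads amount to 1.605 CPM (95% exact Poisson interval 0.589 to 3.49) and 1.39 CPM (0.559 to 2.86). The means of log2(CPM + 1) were 0.99 ± 0.91 (SD, n = 5) and 1.21 ± 0.73 (SD, n = 6), with p = 0.682 by the exact two-sided permutation test and an adjusted p of 0.942.

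Across mice, the 5 receptor genes above the filter gave no relation that held after adjustment. The 10 pairs were compared on TMM log2 CPM over 11 libraries, and the largest relation was that of Klrd1 and Klrc1, the 2 chains of one receptor. Its Pearson r was 0.63 (permutation p = 0.0403, adjusted p = 0.302 over 10 pairs) and its Spearman rho was 0.65 (permutation p = 0.0369, adjusted p = 0.24). Without the 2 libraries farthest from the median of Klrd1, aLAG3 10 and aLAG3 11, r was 0.77, and within the 6 libraries of primer barcode 9 it was 0.75. Klrc2 and Klrk1 had an r of 0.57 (permutation p = 0.0629, adjusted p = 0.302) and a rho of 0.62 (permutation p = 0.048, adjusted p = 0.24), an r of 0.72 without untreated 4 and aLAG3 9, the libraries farthest from the median of Klrc2, and of 0.73 within primer barcode 9. Klrc1 and Klrc2, which share sequence, had an r of 0.54 (permutation p = 0.0907, adjusted p = 0.302) and a rho of 0.51 (permutation p = 0.114, adjusted p = 0.379), with an r of 0.48 without aLAG3 8 and aLAG3 9, the libraries farthest from the median of Klrc1, and of 0.87 within primer barcode 9.

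The relations of Klrd1 with Klrk1 and with Klrc2 moved with 2 libraries. Over all 11 libraries r was 0.043 (permutation p = 0.898, adjusted p = 0.898) and rho was 0.14 (permutation p = 0.693, adjusted p = 0.753). Without aLAG3 10, which had the highest Klrd1 level, and aLAG3 11, which had the lowest Klrd1 and the highest Klrk1 level, r was 0.77, and within primer barcode 9 it was 0.85. Klrd1 and Klrc2 had an r of 0.33 (permutation p = 0.335, adjusted p = 0.558) and a rho of 0.32 (permutation p = 0.34, adjusted p = 0.592) over all 11 libraries, and r was 0.64 without the same 2 libraries and 0.85 within primer barcode 9. The other 5 pairs had r between -0.47 (Klrd1 and Klre1) and 0.44 (Klrk1 and Klre1), with permutation p from 0.148 to 0.726 and adjusted p from 0.356 to 0.806. Their rho lay between -0.46 and 0.31. Without 2 libraries, r was -0.021 for Klrd1 and Klre1 (aLAG3 10 and aLAG3 11 left out) and 0.022 for Klrk1 and Klre1 (aLAG3 6 and aLAG3 11 left out).

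The genes whose levels followed a receptor gene most closely were not other receptor genes. Over the 11 libraries, Klrd1 was most like Eif3l (r = 0.93), Myl12b (0.92) and Tfpt (0.86), and Klrc1 was most like Srp14 (0.87), Cox7c (0.85) and Pigk (0.84). Klrk1 was most like Ik (0.97), Rpl13-ps1 (0.88) and Ipcef1 (0.86), Klre1 most like Mdh1 (0.94), Actr10 (0.91) and Yme1l1 (0.90), and Klrc2 most like Abi2 (0.91), Ppp6r2 (0.88) and Ext2 (0.88). These are the highest of 6948 values each, over libraries that differ in depth. By the same measure Klrc1 stood at rank 133 for Klrd1, Klrd1 at rank 71 for Klrc1, Klrk1 at rank 311 for Klrc2 and Klrc2 at rank 172 for Klrk1.

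Beside the 8 genes the table held 22 other Klr rows, of which 20 had at least 1 read and 2, Klri2 and Klrh1, passed the filter. Klri2 (chr6:129729041-129740484, minus strand) encodes an activating partner of the Klre1 chain. It had 66.4, 69.0, 61.8, 36.6 and 53.5 CPM in untreated mice 1 to 5, and 60.5, 64.3, 69.6, 76.8, 129 and 134 CPM in aLAG3 mice 6 to 11. The highest 2 values were aLAG3 10 and 11, both of primer barcode 8, and the other aLAG3 values overlapped with the untreated ones or lay just above. The log2 fold change was 0.47 (standard error 0.20), with an unadjusted p under 0.05 in the edgeR test that failed the adjustment over all genes (adjusted p = 0.9996). It was 0.11 (standard error 0.17) within primer barcode 9. With the primer barcode as a covariate it was 0.40 (standard error 0.21, unadjusted p = 0.068 in the edgeR test). With 1 library left out it lay between 0.32 and 0.56, with unadjusted p from 0.0092 to 0.093 in that test. The log2 fold change of the partner Klre1 was 0.073 over all libraries and 0.14 (standard error 0.12) within primer barcode 9.

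Klrh1, whose symbol was not placed in the annotation used here, had 53.1, 37.6, 42.3, 48.7 and 30.3 CPM in untreated mice 1 to 5 and 70.4, 39.7, 58.4, 81.5, 35.4 and 103 CPM in aLAG3 mice 6 to 11. The aLAG3 values exceeded every untreated value in libraries 6, 8, 9 and 11 only. Its log2 fold change was 0.54 with a standard error of 0.22 (adjusted p = 0.9996 by the same edgeR test), and 0.48 (standard error 0.26) within primer barcode 9. With the primer barcode as a covariate it was 0.48 (standard error 0.24, unadjusted p = 0.061 in the edgeR test). With 1 library left out it lay between 0.40 and 0.71, with unadjusted p from 0.0014 to 0.074 in that test. Klra6, the next row by reads, was below the filter with 12.9 ± 5.45 CPM across untreated mice (SD, n = 5) and 14.5 ± 10.3 CPM across aLAG3 mice (SD, n = 6). Klra8 and Klrg2 had 0 reads in all libraries, and Klrc3, which lies between Klrk1 and Klrc2, had 21 reads in all.

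Signaling partners of the receptors were measured unevenly. Of 11 genes listed for receptor signaling, 7 passed the filter, 0 were called, 2 had a log2 fold change above and 5 below 0, and the median log2 fold change was -0.058 against 0.0041 over all genes. Hcst encodes DAP10, an adaptor of NKG2D, and had 259 ± 19.3 CPM across untreated mice (SD, n = 5) and 253 ± 22.0 CPM across aLAG3 mice (SD, n = 6). Tyrobp encodes DAP12, the adaptor that NKG2C needs and that a short form of mouse NKG2D can also use, and it was below the filter with 15.1 ± 3.22 CPM across untreated (SD, n = 5) and 10.1 ± 6.54 CPM across aLAG3 mice (SD, n = 6). The kinase Zap70 had 176 ± 22.5 and 190 ± 28.9 CPM, the phosphoinositide 3-kinase subunit Pik3r1 had 213 ± 11.8 and 203 ± 41.5 CPM, and the exchange factor Vav1 had 66.7 ± 5.08 and 63.2 ± 15.4 CPM in untreated and aLAG3 mice.

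The phosphatases that bind inhibitory receptors such as NKG2A were all measured. Of 3 listed, 3 passed the filter and 0 were called. Ptpn6 (SHP-1) had 193 ± 16.3 CPM across untreated mice (SD, n = 5) and 229 ± 46.2 CPM across aLAG3 mice (SD, n = 6), and its log2 fold change was 0.20 (standard error 0.11). It was 0.23 (standard error 0.15) for Ptpn11 (SHP-2) and -0.013 (standard error 0.20) for Inpp5d (SHIP-1), with a median of 0.20 and an adjusted p of 0.9996 for each in the edgeR test.

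Of the ligands of NKG2 receptors, H2-T23 was high in these cells. H2-T23 encodes Qa-1, the ligand of the CD94 receptors, and had 526 ± 39.04 CPM across untreated mice (SD, n = 5) and 525 ± 45.8 CPM across aLAG3 mice (SD, n = 6). Ulbp1, a ligand of NKG2D, had 15.8 ± 9.59 and 17.8 ± 11.3 CPM, with the higher mean in aLAG3 mice, while its fitted log2 fold change was -0.14 (standard error 0.34), and H60b, another, had 14 reads in all. Of the 10 ligand genes listed, 6 had a row in the table, 2 passed the filter and 0 were called. The median log2 fold change of -0.065 is the midpoint of Ulbp1 and H2-T23 (0.0046), whose signs differ. These levels are of the sorted T cells, and the ligands of the tumor cells were not measured here.

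Of 7 genes listed as ligands of other Klr receptors, 4 passed the filter and 0 were called, with a median log2 fold change of 0.018. The classical MHC class I genes H2-K1 and H2-D1, of the molecules that Ly49 receptors bind, had 5395 ± 249 and 4202 ± 119 CPM in untreated (SD, n = 5) and 5587 ± 464 and 4187 ± 304 CPM in aLAG3 mice (SD, n = 6). Clec2i and Clec2d, ligands of Klrb1 family receptors, had log2 fold changes of 0.45 (standard error 0.22) and -0.18 (standard error 0.23), with an adjusted p of 0.9996 each in the edgeR test. The cadherin genes Cdh1, Cdh2 and Cdh4, of the ligands of Klrg1, had 8, 2 and 0 reads in all.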

How the data were processed

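The authors amplified bead-bound poly(A) RNA of sorted CD8+ T cells by template switching and PCR, trimmed the reads with Cutadapt, mapped them to GRCm38 reference RNA with Bowtie2, and deposited raw counts per gene symbol in 1 table (cutadapt 4.1 and Bowtie2 2.4.5 in the submitters' processing notes, other versions in the study's methods). Strand and the treatment of reads matching several genes are not given in the sources used here.

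Genes were kept by filterByExpr (at least 17.7 CPM in 5 or more libraries), normalized by TMM and tested with edgeR 4.0.16 (R 4.3.3) by the quasi-likelihood test with Benjamini-Hochberg adjustment over the 6949 genes kept; the fit was also tested on simulated data. Standard errors are the absolute log2 fold change over the square root of F. Genes below the filter and the Klrc1 to Klrc2 ratio were compared by exact permutation over the 462 splits of the mice on log2(CPM + 1), and correlations by 100000 permutations (scipy 1.17.1). DESeq2 1.42.0 was an alternative, with other normalization, test, filter, primer barcode and pseudocount settings and with each library left out. Coordinates, lengths and 50-base stretches come from GENCODE M21, in which 96.3% of the symbols were found.

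The genes and lists were chosen with earlier results of these data known. Named are the 8 receptor genes, up to 4 genes of each list by mean CPM plus any called, the 3 other Klr rows with the most reads, and the 3 genes most like each receptor gene with a mean of at least 50 counts; further genes were named after their values were seen.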

Additional observations from a re-analysis of the deposited data

How the results depend on the processing

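No paired analysis was possible because the libraries carry the numbers 1 to 11 and the groups share none. The count of 0 receptor genes called held under all 17 alternatives, and the count of 0 genes called over the table held under all but that without a filter on low counts, which tested 24024 genes and called 7, none of them a receptor gene described here and 1 of them the NK cell marker Gzma. The log2 fold changes of Klrd1, Klrk1 and Klre1 kept their sign throughout. With 1 library left out, they lay between 0.0055 and 0.060 for Klrd1, 0.0013 and 0.081 for Klrc1, 0.020 and 0.16 for Klrc2, 0.040 and 0.12 for Klrk1, and 0.020 and 0.14 for Klre1. Within primer barcode 9 that of Klrc1 was -0.022 and that of Klrc2 -0.053, and the log2 ratio of Klrc1 to Klrc2 differed by 0.064. Correlations with Klre1 also turned there, to 0.39 with Klrd1, 0.042 with Klrc1 and -0.11 with Klrc2, and to 0.39 with Klrc1 without aLAG3 8 and aLAG3 9. The cause of these turns was not tested. Leaving out 1 library moved the difference in the Klrc1 to Klrc2 ratio between -0.15 and -0.0081, that of Klrb1c between -0.029 and 0.46, that of Klra7 between -0.15 and 0.56 and that of Klrg1 between -1.08 and -0.41 on the log2(CPM + 1) scale. Low counts limit the values of these 3 genes, with at most 3 counts of Klrb1c, 4 of Klrg1 and 23 of Klra7 in a library. The cause of the low counts was not tested.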
